A study of Mus musculus with 6 samples.

Results

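T cells whose droplet barcode held 2 T cell receptor alpha (TRA) chains beside 1 beta (TRB) chain were compared with T cells that held 1 of each. A barcode entered when its contigs, the receptor sequences assembled from one droplet, included exactly 1 TRB contig and either 2 TRA contigs (called dual here) or 1 TRA contig (called single). It also needed at least 1000 gene UMIs in the expression matrix of its day, with at most 10% of them mitochondrial. UMIs are molecular tags that let each captured RNA molecule be counted once. These rules kept 1252 dual and 8529 single barcodes, together 9781 of 12654 barcodes with contigs. Day 13 gave 709 dual and 5692 single barcodes, and day 19 gave 543 dual and 2837 single barcodes. Members were chosen by their number of TRA and TRB contigs, so the share of dual barcodes and their chain UMIs are descriptions without a test.

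The cells were sorted as CD3+ CD4+ or CD3+ CD8+ from CT2A tumors, a mouse glioma line implanted in the brain, of wild-type C57BL/6J mice aged 6 to 8 weeks, per the labels. Day 13, the early group, came from 16 mice in pools of 4, and day 19, the late group, from 4 mice, and the labels give no treatment for either. Each day was 1 capture with 1 gene expression, 1 antibody tag and 1 receptor library, so no p-value is given and intervals cover counting error only. The contigs came in 4 tables per day, called sets here, and the ranges over sets describe the spread. In all, the day 13 matrix had 144565182 gene UMIs and the day 19 matrix 81224453. All 25592 contigs were listed as productive and full length, so an unproductive TRA rearrangement was not seen. Of the passing barcodes, 1126 at day 13 and 453 at day 19 had 1 TRB and no TRA contig, and 520 and 314 had 2 TRB contigs. Next to the depth limit, the shallowest members had 1002 (day 13) and 1141 (day 19) gene UMIs, and the deepest barcodes left out 988 and 922. The 2 days shared 36 member barcodes. Cd3e, a chain of the CD3 complex that defines T cells, had a UMI in 381 of 387 dual and 2965 of 2987 single CD8 barcodes at day 13, and in 331 of 333 and 1405 of 1421 at day 19.

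The alpha chain gene is assembled by joining a V to a J segment, and both copies of the locus rearrange in the same thymocyte, in repeated rounds that use up V and J segments from the inside of the locus outward. The TRB locus is held to 1 productive copy far more strictly, so a T cell can carry 2 alpha chains with 1 beta chain. In mm10 (RefSeq, GRCm38.p6) the alpha V and J segments lie on the plus strand of chr14:52427967-54218842, from Trav1 to Traj1, and J segments are numbered downward along it: Traj61 lies nearest the V segments and Traj1 nearest the constant gene Trac.

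The chain sequences of the clonotype with the most dual barcodes on each day, called the largest dual clonotype of that day, show what a dual barcode held. A clonotype is the set of barcodes of 1 contig set with the identical TRB CDR3 nucleotide sequence, CDR3 being the loop that spans the V to J join. Capitals mark the bases at the join that most other contigs with the same V segment or the same J segment did not share, and sequences run 5′ to 3′ as deposited.
Day 19 clonotype, alpha TRAV12-1 with TRAJ39: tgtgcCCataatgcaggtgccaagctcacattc
Day 19 clonotype, alpha TRAV13D-2 with TRAJ7: tgtAactacagcaacaacagacttactttg
Day 19 clonotype, beta TRBV5 with TRBJ2-5: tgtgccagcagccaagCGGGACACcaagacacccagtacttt
Day 13 clonotype, alpha TRAV4-4-DV10 with TRAJ49: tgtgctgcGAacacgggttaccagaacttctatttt
Day 13 clonotype, alpha TRAV7-3 with TRAJ40: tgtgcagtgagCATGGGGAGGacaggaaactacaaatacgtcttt
Day 13 clonotype, beta TRBV29 with TRBJ2-7: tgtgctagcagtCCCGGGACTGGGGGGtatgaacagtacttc
The day 19 clonotype had 150 members in set 2, of which 138 (92.0%) were dual, all 138 with this pair of alpha chains. Its other 12 members were single: 9 carried the TRAJ39 chain and 3 the TRAJ7 chain. All but 1 member were in the CD8 class, and the exception had UMIs of both coreceptors. The same beta and alpha pair was found dual in 3 barcodes of set 1, 1 of set 3 and 2 of set 4. The day 13 clonotype had 27 members in set 2, all CD8, of which 25 (92.6%) were dual with this pair, and its 2 single members carried 1 chain each. The 2 alpha chains of the day 19 clonotype had medians of 10 and 9 UMIs, and those of the day 13 clonotype 7 and 6.

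Dual barcodes made up 11.1% of the members at day 13 (709 of 6401, exact binomial 95% interval 10.3 to 11.9) and 16.1% at day 19 (543 of 3380, interval 14.8 to 17.3). Barcodes were put in the CD8 class with at least 1 UMI of Cd8a or Cd8b1, the 2 chains of the CD8 coreceptor, and none of Cd4, and in the CD4 class the other way round. At day 13 the dual share was 11.5% of 3374 CD8 barcodes (interval 10.4 to 12.6) and 11.0% of 1514 CD4 barcodes (interval 9.50 to 12.7), which overlapped. Over sets 1 to 4 it was 10.9%, 11.3%, 10.8% and 13.3% in CD8 and 8.53%, 12.5%, 10.7% and 11.4% in CD4. At day 19 it was 19.0% of 1754 CD8 barcodes (interval 17.2 to 20.9) and 12.8% of 916 CD4 barcodes (interval 10.7 to 15.1). The day 19 CD8 sets were at 15.9%, 24.2%, 16.3% and 10.6%, and the CD4 sets at 24.6%, 11.3%, 12% and 13.4%, so the order of the classes differed between sets. CD4 set 1 rested on 15 dual of 61 barcodes. Among day 19 CD4 barcodes with at most 1 UMI of the macrophage and microglia markers the share was 8.16%.

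The high day 19 CD8 share rested on 1 clonotype. Without the 150-member clonotype it was 12.2% (196 of 1605, interval 10.6 to 13.9), and set 2 went from 24.2% to 9.90%. The day 13 share without its largest dual clonotype was 10.8%. Among clonotypes with 1 member the dual share was 11.8% of 4829 at day 13 and 11.9% of 1995 at day 19. Among clonotypes of 2 or more members, 52 of 413 (12.6%) held a dual barcode at day 13 and 59 of 289 (20.4%) at day 19. This counts a clonotype if any of its barcodes was dual, so it can rise with size and is unlike the 1-member share. In the day 19 CD8 class the share by clonotype size was 11.6% for 1 member, 15.2% for 2 to 4, 16.1% for 5 to 19 and 44.1% for 20 or more; the last group was 157 of 356 barcodes and included the 150-member clonotype. In the day 13 CD8 class the same 4 sizes gave 11.99%, 11.9%, 9.11% and 9.88%. Day 13 CD4 barcodes were dual in 12.4% of clonotypes with 1 member and in 5.74% of barcodes from clonotypes of 2 to 4, with 14 dual of 244. At day 19 the CD4 shares were 12.1% for 1 member, 14.5% for 2 to 4 and 15.8% for 5 to 19, and 0 of 49 barcodes were dual in clonotypes of 20 or more (upper bound of the exact binomial interval 7.25%), so the 2 days did not share an order.

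**Figure D1:**
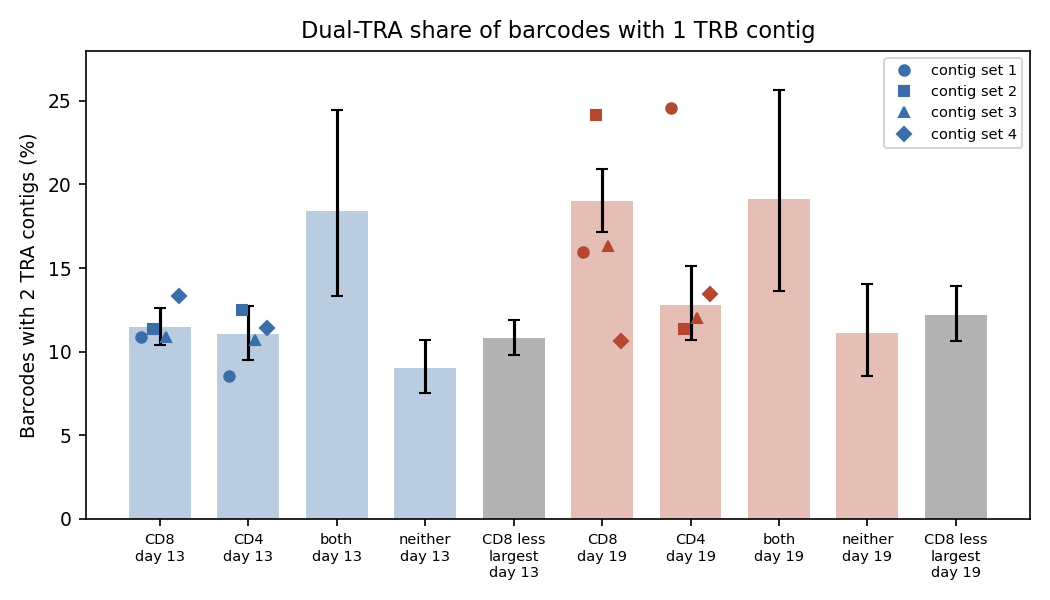
Percent of barcodes with 1 TRB contig that held 2 TRA contigs (vertical axis) by coreceptor class and day. Bars are all sets together with exact binomial 95% intervals, points are contig sets, and gray bars leave out the largest dual clonotype of the day, which takes the day 19 CD8 share from 19.0% to 12.2%.

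Barcodes with UMIs of both coreceptors were dual in 18.4% of 201 at day 13 (interval 13.3 to 24.5) and 19.1% of 178 at day 19 (interval 13.6 to 25.7). Barcodes with neither were dual in 8.99% and 11.1%. The share also moved with depth. At day 13 it went from 7.87% of CD8 barcodes with 1000 to 3000 gene UMIs to 12.3% of those above 12000, and from 5.14% of CD4 barcodes with 1000 to 3000 gene UMIs to 17.7% of those above 12000, and at day 19 from 12.5% (5 of 40) of CD8 barcodes with 1000 to 3000 gene UMIs and 8.88% of those with 3000 to 6000 to 27.8% above 12000. Without the 150-member clonotype, whose CD8 barcodes had a median of 12410 gene UMIs, the day 19 CD8 share above 12000 was 17.7% and that at 3000 to 6000 was 8.67%. Median gene UMIs were 6963 in dual and 6296 in single CD8 barcodes at day 13, 5063 and 4439 in CD4, 11706 and 8198 in day 19 CD8, and 10683 and 7354 in day 19 CD4. A second TRB contig was present in 17.2% of all barcodes with 2 TRA contigs against 6.15% of those with 1 at day 13, and in 13.1% against 7.56% at day 19. The part that depth and droplets of more than 1 cell have in the dual share was not tested. The multiplexing tags had similar purity over all classes: 77.7% of dual and 77.1% of single barcodes had at least 80% of their tag UMIs on 1 tag at day 13, and 80.3% and 79.4% at day 19. Among barcodes with UMIs of both coreceptors these shares were 83.8% of 37 dual and 68.3% of 164 single at day 13, and 58.8% of 34 and 68.1% of 144 at day 19.

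Repeated sightings of the same pair bear on the second chain. Dual barcodes of clonotypes with 1 member, 568 of 709 at day 13 and 238 of 543 at day 19, lie outside this check. In clonotypes with at least 2 members and a dual member, 122 of 141 dual barcodes at day 13 (86.5%, interval 79.8 to 91.7) had an alpha pair seen again in another barcode of the clonotype, and 285 of 305 at day 19 (93.4%, interval 90.1 to 95.9). Without the largest dual clonotype the day 19 value was 88.0%. Members of these clonotypes were seen as dual in 71.6% of 197 barcodes at day 13 and 80.7% of 378 at day 19. Of the single members, 55 of 56 and 70 of 73 carried 1 chain of a pair seen in their clonotype. The same alpha chain turned up with another TRB in the same set for 4.02% of single chains at day 13, 4.51% of the dual chains with more UMIs and 4.65% of those with fewer. At day 19 these values were 7.72%, 3.87% and 2.21%. Within 1 day, 3 dual combinations at day 13 (16 barcodes) and 13 at day 19 (223 barcodes) occurred in more than 1 set, and none of 898 was shared between days.

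Together, the alpha chains of a dual barcode held about double the contig UMIs of the lone chain of a single barcode. At day 13 the median was 5 UMIs for the single chain, 6 for the dual chain with more UMIs, 4 for the one with fewer and 10 for their sum. At day 19 these medians were 6, 10, 6 and 16 UMIs. Picking the higher and lower of 2 chains separates them by itself, so their own values are descriptions and the sum is the value compared with single barcodes. The mean sum was 2.14 times the single mean at day 13 (1.92, 2.16, 2.33 and 2.00 in sets 1 to 4) and 2.28 times at day 19 (2.38, 2.32, 2.10 and 2.24). All 8 sets lay between 1.92 and 2.38. TRB contigs, which the rule holds at 1, differed less: the dual mean was 1.13 times the single mean at day 13 (sets 0.939 to 1.21) and 1.22 times at day 19 (sets 0.877 to 1.33), beside gene UMI means of 1.12 and 1.31 times. The chain with fewer UMIs had a median of 0.667 of the other's UMIs on both days, and at least 0.5 of them in 78.1% and 78.6% of dual barcodes. It had at most 2 UMIs in 24.4% of dual barcodes at day 13 and 10.9% at day 19.

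**Figure D2:**
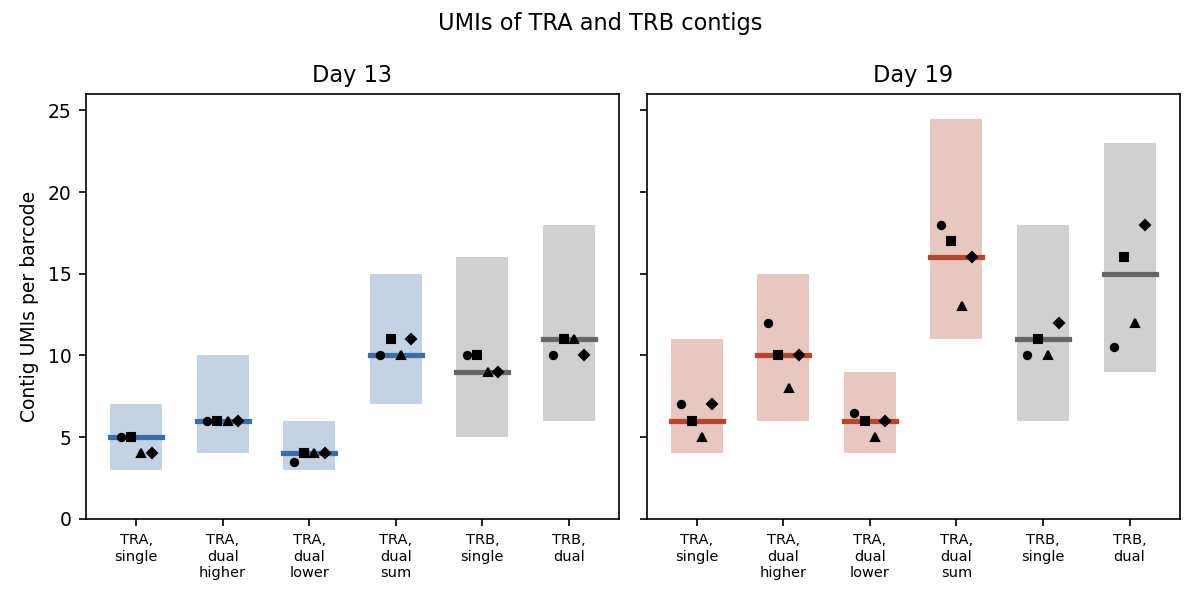
Contig UMIs per barcode (vertical axis) for TRA and TRB chains of single and dual barcodes. Lines are medians, boxes span the middle quartiles and black symbols are the medians of contig sets 1 (circle), 2 (square), 3 (triangle) and 4 (diamond); the dual sum has a median of 10 UMIs at day 13 against 5 for the single chain, and 16 against 6 at day 19.

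The gene expression library, made from the cDNA of the same droplets but counted without the contigs, held more alpha RNA in dual barcodes too. UMIs of the 189 Trav, Traj and Trac genes averaged 10.5 per dual and 6.06 per single CD8 barcode at day 13, and 13.5 and 6.96 at day 19. In CD4 barcodes they averaged 9.21 and 4.61 at day 13, and 13.5 and 7.96 at day 19. As CPM, counts scaled to a common total of gene UMIs, the log2 ratio of dual to single was 0.72 in day 13 CD8 (Poisson 95% interval 0.67 to 0.77), 0.66 in day 13 CD4 (0.58 to 0.74), 0.62 in day 19 CD8 (0.57 to 0.67) and 0.44 in day 19 CD4 (0.36 to 0.52). It was above 0 in 15 of 16 sets, the exception being day 19 CD4 set 1 at -0.13 with 15 dual barcodes. Without the largest dual clonotype the CD8 values were 0.68 and 0.58. The 53 Trbv, Trbd, Trbj and Trbc genes gave log2 ratios of 0.05 in day 13 CD8, 0.03 in day 13 CD4 and -0.00 in day 19 CD4. In day 19 CD8 they gave -0.75, and -0.29 without the largest dual clonotype, whose TRBV5 chain had a median of 20 contig UMIs.

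The V segment named by each contig was looked for in the expression library of the same barcode. At day 13, 64.4% of single chains, 65.4% of the dual chains with more UMIs and 63.3% of those with fewer had at least 1 UMI of their V gene there. At day 19 these shares were 64.6%, 58.5% and 54.6%. Of the 540 dual barcodes searched there, 138 were of the 150-member clonotype, and no value without it was computed. For comparison, the V gene of another single barcode of the set was found in 0.610% of 5577 barcodes at day 13 and 0.541% of 2773 at day 19. In dual barcodes, the V gene of a single barcode of the set that neither alpha chain used was found in 2 of 676 at day 13 (0.296%, interval 0.0358 to 1.06) and 1 of 519 at day 19 (0.193%, interval 0.00488 to 1.07), far below the share for the chain with fewer UMIs. The search used dual barcodes with different V segments, 694 at day 13 and 540 at day 19. V segments with near-identical copies elsewhere in the locus can share reads, so single V values are uncertain.

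**Figure D3:**
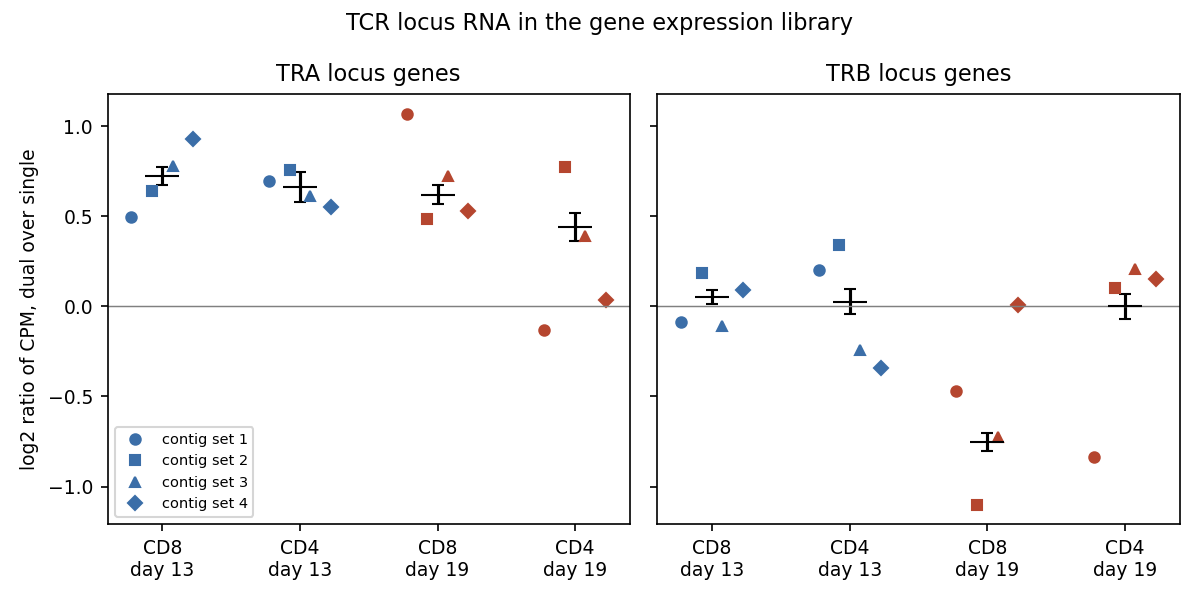
Log2 ratio of CPM, dual over single, of TRA and TRB locus genes in the gene expression library (vertical axis) by class and day. Bars with caps are all sets together with Poisson 95% intervals and symbols are contig sets; the TRA values of all sets together lie between 0.44 and 0.72, and the TRB values between -0.75 and 0.05.

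The 2 alpha chains of a cell used J segments that lay closer together than those of different cells. Each combination of clonotype and alpha pair was counted as 1, giving 621 pairs at day 13 and 298 at day 19. A clonotype belongs to 1 set, so a pair found in more than 1 set was counted in each. Across sets, 618 combinations at day 13 and 280 at day 19 were different, so the sets are not fully separate. The Spearman correlation of the 2 TRAJ numbers was 0.61 at day 13 (0.62, 0.65, 0.54 and 0.63 in sets 1 to 4) and 0.59 at day 19 (0.57, 0.57, 0.63 and 0.59). The points of a set share a library and a contig caller, and the correlations are descriptions. The median distance was 7 J numbers at day 13 and 8 at day 19, against 13 and 14 between chains of different dual combinations of the same day. The 2 chains lay within 10 J numbers of each other in 67.6% and 66.1% of pairs, against 41.1% and 38.8% between different combinations. In the 8 sets the share within 10 ranged from 60.5% to 76.9%, and between different combinations from 35.5% to 44.8%, so the ranges did not overlap. Both chains used the same J segment in 33 pairs (5.31%) at day 13 and 20 pairs (6.71%) at day 19, against 3.04% and 3.05% between different combinations.

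The J cluster was cut into 3 regions after the values were seen: TRAJ40 and above nearest the V segments, TRAJ21 to TRAJ39 in the middle, and TRAJ20 and below nearest Trac. When 1 chain used the region nearest the V segments, the other did so in 65.3% of cases at day 13 and used the region nearest Trac in 5.67%. When 1 chain used the region nearest Trac, the other did so in 43.7%, used the middle in 50.5% and used the far region in 5.80%. At day 19 the corresponding values were 57.4% and 4.65%, and 58.6%, 38.1% and 3.31%. Pairs from opposite ends of the J cluster were therefore few on both days. The V segments of the 2 chains were less related: the Spearman correlation of their start positions was 0.20 at day 13 (sets 0.01 to 0.30) and 0.18 at day 19 (sets 0.02 to 0.28). The largest day 19 clonotype, with TRAJ39 and TRAJ7, was a wide pair, and with every barcode counted the day 19 J correlation was 0.16 and the V correlation -0.059. Only 13 of the 621 pairs and 3 of the 298 used the same V segment, and 1 pair had CDR3 sequences of equal length within 3 mismatches.

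**Figure D4:**
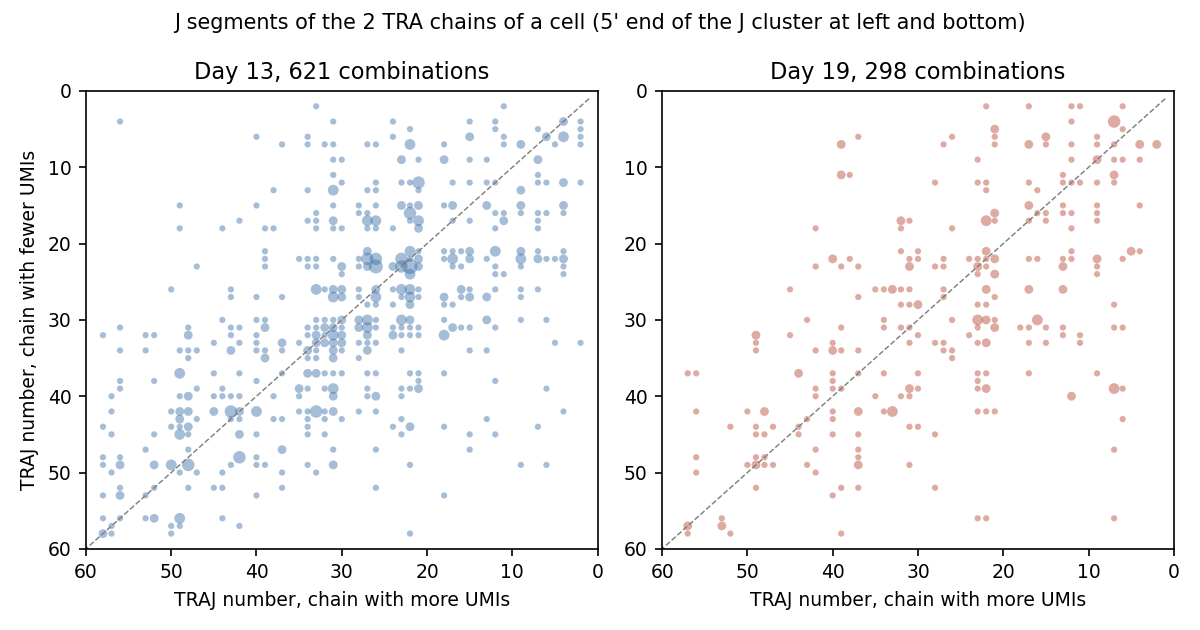
TRAJ number of the chain with more UMIs (horizontal) against that of the chain with fewer UMIs (vertical), 1 point per dual combination with area by number, both axes running from the V side of the J cluster to the Trac side. Points follow the dashed line of equal J use, with Spearman correlations of 0.61 at day 13 and 0.59 at day 19.

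As populations, dual and single chains used V and J segments alike in position at day 13. The median TRAJ number was 28 for 4666 single combinations and 28 for the 1242 chains of dual combinations at day 13, and 27 and 26 at day 19 for 2031 and 596 chains. The mean TRAJ number of dual minus single was -0.49 at day 13 and -2.08 at day 19, where set 3 was at -5.09 and the other sets between -1.47 and -1.33. At day 13 the sets ran from -1.67 to 1.11 and crossed 0. The median V start lay 942 kb from the start of Trav1 for single and dual chains at day 13, and 942 and 891 kb at day 19. Among single segments, chosen after their values were seen, TRAJ42 made up 3.54% of dual and 1.71% of single chains at day 13, and 3.52% and 1.92% at day 19. TRAJ18, the J segment of the invariant chain of NKT cells, made up 2.42% and 3.41% at day 13, and 0.839% and 2.86% at day 19. Of barcodes with the invariant TRAV11-TRAJ18 chain, 4 of 51 at day 13 and 2 of 27 at day 19 were dual, with intervals of 2.18 to 18.9% and 0.910 to 24.3%.

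In gene expression, some effector genes were lower in dual CD8 barcodes of day 13, and the 4 of the terminal list were not called when each clonotype was weighted equally. UMIs were summed over barcodes, and a gene was called when both sums together held at least 100 UMIs, the CPM ratio was at least 1.5-fold, its Poisson interval left out 1 and all 4 sets moved the same way. By this rule 40 of 9679 genes (0.413%) were higher in dual CD8 barcodes of day 13 and 190 (1.96%) lower, 2.38% in all. Without the largest dual clonotype of the day these were 50 (0.517%) and 218 (2.26%) of 9666, 2.77% in all. Counted with each clonotype weighted equally, 80 were higher and 155 lower. Of 15 terminal exhaustion and cytotoxicity genes, 4 were lower and none higher, with a list median log2 ratio of -0.43 beside -0.00 for all tested genes. Havcr2, the inhibitory receptor TIM-3, was at 33.4, 16.8, 13.1 and 17.2 CPM in dual sets 1 to 4 and 40.1, 34.9, 26.4 and 50.03 in single sets, a log2 ratio of -1.03 (interval -1.44 to -0.64). Each dual set was below its single set, though dual set 1 was above single set 3. Prf1, the pore-forming perforin, was lower at -0.82, Ccl4, a chemokine of activated T cells, at -0.77, and Entpd1, the ectonucleotidase CD39, at -0.59. Pdcd1, the inhibitory receptor PD-1, was at 165 CPM in dual and 229 in single barcodes, -0.47, lower in 4 of 4 sets and short of 1.5-fold. With each clonotype weighted equally, Havcr2 was at -0.50, Prf1 at -0.31, Ccl4 at -0.78, Entpd1 at -0.33 and Pdcd1 at -0.05, and none of the 5 was called. Among clonotypes of 1 member Havcr2 was at -0.29, Prf1 at -0.16, Ccl4 at -0.70, Entpd1 at -0.24 and Pdcd1 at 0.17.

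Several of the lowest genes at day 13 were carried by few barcodes. Gzmf, a granzyme, held 2 UMIs in dual CD8 barcodes and 1222 in single ones, of which 636 were in 1 barcode. Ccl22, a chemokine of dendritic cells, held 2 and 292 UMIs, and 8 single barcodes held a share of at least 0.5 of the latter. Clec4e and Ifitm6, both known from myeloid cells, held 2 and 157, and 6 and 341. Myo10 held 1 and 123 UMIs, and Kdr 3 and 190. Of 15 macrophage and microglia markers 3 were lower and none higher, beside 1.96% lower and 0.413% higher of all tested genes. Lyz2 was lower by 1.21 on the log2 scale, Cd14 by 1.37 and Apoe by 0.94. The list summed to 1111 CPM in dual and 1761 in single CD8 barcodes, with no marker at 0, and over all classes to between 1361 and 4513 CPM in dual and 2184 and 4448 in single sets. With only barcodes of at most 1 UMI of this list, 45 genes were higher and 84 lower, of which 58 were among the 230 calls with all barcodes, Clec4e turned to 2.39 and Cd14 to 1.07, and Havcr2 was at -1.13 and not called. Its part in the other calls was not tested. The genes highest in dual barcodes had low levels: Phf13, a chromatin reader, was at 20.8 CPM in dual and 9.02 in single barcodes (1.21, interval 0.79 to 1.61). Akr1c13 was at 1.06, Mrm1 and Tmem201 at 1.00, Egln3, an oxygen-sensing hydroxylase, at 0.99, and Armc3 at 0.89.

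At day 19 the CD8 comparison carried the largest dual clonotype. Of 9068 genes 88 (0.97%) were higher in dual barcodes and 248 (2.73%) lower, 3.71% in all. Of the 15 terminal exhaustion and cytotoxicity genes 6 were higher and none lower (median 0.60), and of 11 tested progenitor genes 7 were lower and none higher (median -1.08), beside -0.01 for all tested genes. Tcf7, the transcription factor of stem-like T cells, was at 98.4, 47.1, 87.6 and 89.2 CPM in dual sets and 109, 161, 144 and 123 in single sets (-1.13, interval -1.31 to -0.94). No dual set reached a single set. Lef1 was at -1.19 and Id3 at -1.65. Pdcd1 was at 278, 439, 278 and 262 CPM in dual sets and 174, 278, 227 and 227 in single sets (0.63, interval 0.55 to 0.72). Lag3 was at 0.71, Havcr2 at 0.76, Tigit at 0.60 and Gzmb, granzyme B, at 1.02. Gzmf was at 2231 CPM in dual and 560 in single barcodes (1.99), and Gzmc at 998 and 290 (1.78), and 7 dual barcodes held a share of at least 0.5 of the 9588 Gzmf UMIs.

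Without that clonotype 38 genes (0.429%) were higher and 115 (1.3%) lower, 1.73% in all of 8866, and 103 of these 153 were among the 336 called with it. None of the terminal list was then higher and 1 was lower, 2 of the progenitor list were lower, and Pdcd1 was at 0.07, Lag3 at 0.22, Havcr2 at 0.32 and Tcf7 at -0.32, each short of 1.5-fold. Gzmc was at 1.34 and Gzmf at 1.19 without it, and not in the same direction in every set. Within the clonotype's 149 CD8 barcodes Tcf7 was at 0.5 CPM, against 114 in other dual and 142 in other single CD8 barcodes. Pdcd1 was at 541, 248 and 236 CPM in the same order, Lag3 at 520, 271 and 233, Gzmb at 3461, 1853 and 1275, and Slamf6 at 1.0, 21.5 and 29.1. The 3, 1 and 2 dual barcodes of sets 1, 3 and 4 with the same beta and alpha pair stay outside this clonotype, since a clonotype is defined within a set. The other dual CD8 barcodes lay nearer to the single ones than to the large clonotype for these 5 genes. They lay nearer to the clonotype for Prf1, at 195, 178 and 106 CPM in the same order, for Mki67, at 175, 170 and 127, for Il7r, a receptor for a T cell survival cytokine, at 74.3, 95.7 and 144, for Trac, at 254, 257 and 199, and on the log scale for Gzmc, at 1238, 738 and 292. In set 2 alone, other dual barcodes were below single ones for Gzmb, at 751 and 1157 CPM, and for Pdcd1, at 191 and 269. The same held in that set for Prf1, at 65.8 and 80.6, for Gzmc, at 11.2 and 404, and for Il7r, at 127 and 167. Mki67, at 193 and 109, and Trac, at 270 and 198, were above the single ones there. Other high genes of day 19 were Dusp14 (1.33), Cfap126 (1.32), Tmprss6 (1.28) and Pde4a (1.27), of which Tmprss6 alone was called without the clonotype. The lowest were Sct (1 and 162 UMIs), Enpp2 (0 and 125), H2-DMb2 (4 and 152), Ifi205 (15 and 260), Cxcl9 (48 and 681) and Gpr15 (8 and 109), and 115 of the 162 Sct UMIs were in 1 barcode. These 6 were called without the clonotype too. Macrophage markers were lower in 3 of 15 and higher in none, beside 2.73% lower and 0.97% higher of all tested genes. They summed to 1748 CPM in dual and 2619 in single CD8 barcodes, with no marker at 0. Without the largest dual clonotype none of them was called. With at most 1 UMI of these markers 51 genes were higher and 116 lower, of which 73 were among the 336 calls with all barcodes, and Enpp2 was at 0.18, and their part in the other calls was not tested.

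**Figure D5:**
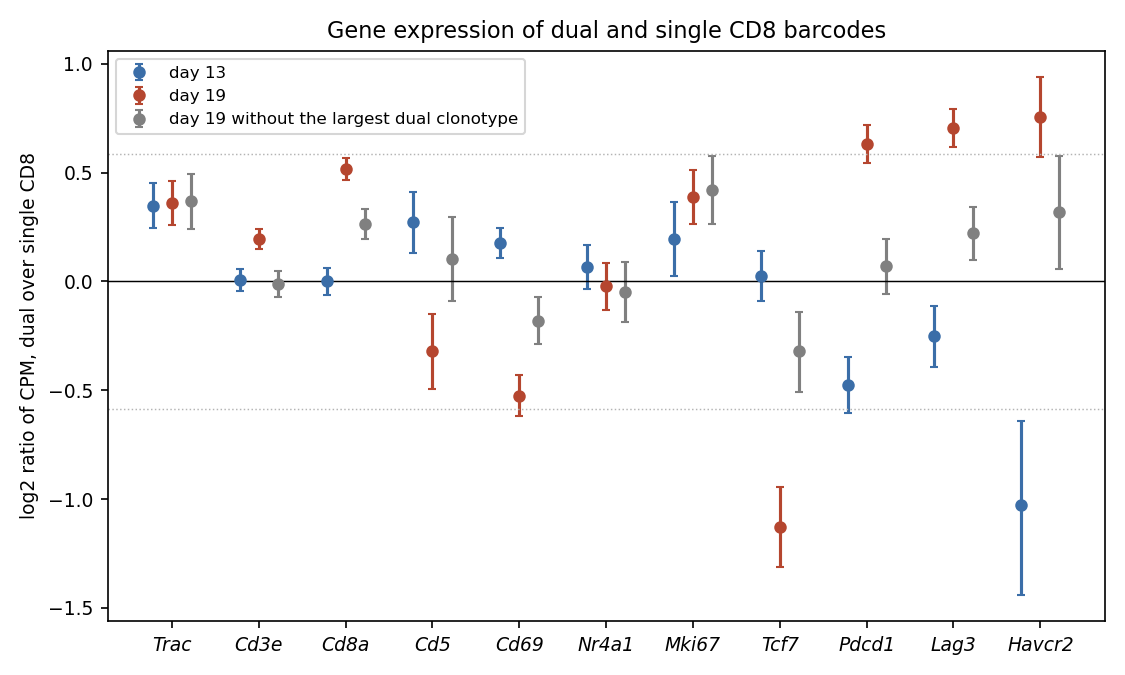
Log2 ratio of CPM, dual over single CD8 barcodes (vertical axis), for 11 genes at day 13, day 19 and day 19 without its largest dual clonotype, with Poisson 95% intervals. Dotted lines mark 1.5-fold; Tcf7, Pdcd1, Lag3 and Havcr2 pass it at day 19 with the clonotype and not without it, while Trac stays between 0.35 and 0.37.

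Of the 4 CD3 genes and the 3 constant genes Trac, Trbc1 and Trbc2, Trbc1 in day 13 CD4 barcodes was the 1 call over the 4 comparisons. Over all tested genes 2.38% and 2.57% were called in CD8 and CD4 at day 13, and 3.71% and 1.76% at day 19. Trac, the constant part of every alpha chain, was at 206, 285, 285 and 275 CPM in dual and 192, 237, 215 and 187 in single CD8 sets of day 13 (0.35, interval 0.24 to 0.45), higher in 4 of 4 sets. In day 19 CD8 it was at 255, 260, 275 and 217 in dual and 149, 199, 213 and 216 in single sets (0.36, interval 0.26 to 0.46), again higher in each set. It was at 0.34 in day 13 CD4, with 4 of 4 sets higher, and 0.15 in day 19 CD4, with 2 of 4. None passed 1.5-fold. The signaling chains Cd3d, Cd3e, Cd3g and Cd247 lay between -0.11 and 0.25 in all 4 comparisons. The coreceptor genes Cd8a and Cd8b1 were at 0.00 and 0.01 in day 13 CD8, and at 0.52 and 0.42 in day 19 CD8, where they were at 0.27 and 0.06 without the largest dual clonotype. Cd4 was at -0.31 in day 13 CD4, lower in 4 of 4 sets, and -0.13 at day 19. At least 1 coreceptor UMI put a barcode in its class, and dual barcodes were deeper. The coreceptor ratios are therefore descriptions only.

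Genes that follow receptor signaling gave no common direction. Nr4a1, an early response gene, was at 0.07 and -0.02 in CD8 of days 13 and 19 and at -0.12 and 0.21 in CD4. Cd5, a surface tuner of receptor signaling, was at 0.27 in day 13 CD8, higher in 4 of 4 sets, and at -0.32 in day 19 CD8, where 3 of 4 sets were higher and the value was 0.10 without the largest dual clonotype. Cd69, an activation marker, was at 0.18 and -0.52 in CD8 and -0.22 and -0.14 in CD4, and in day 19 CD8 at -0.18, lower in 3 of 4 sets, without the largest dual clonotype. Of 14 tested receptor-induced genes, none was called in 3 of the comparisons and 1, Tnfrsf9, was higher in day 19 CD8 (0.89) and not called without the largest dual clonotype, beside 0.97% of all tested genes higher in day 19 CD8. The recombinase genes Rag1 and Rag2 were listed at 0 UMIs in all groups, and Dntt, which adds bases at joins, held at most 7 UMIs in any group.

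In the CD4 class at day 13, 74 of 7747 genes (0.955%) were higher in dual barcodes and 125 (1.61%) lower, 2.57% in all. Trbc1, 1 of the 2 beta constant genes, was at 129, 95.9, 68.4 and 80.7 CPM in dual and 63.8, 51.1, 52.7 and 59.6 in single sets (0.65, interval 0.34 to 0.96), with every dual set above every single set, while Trbc2, the other, was at -0.14. Of 14 cell cycle genes 13 were above 0 with a median of 1.09, and none was called. In day 19 CD4 barcodes 5 of the 14 were above 0, with a median of -0.08 and none called. Mki67, a proliferation marker, was at 88.4, 157, 88.6 and 11.0 CPM in dual and 56.9, 36.1, 16.1 and 24.2 in single sets (1.597, interval 1.28 to 1.91), and 3 dual barcodes held a share of at least 0.5 of its 123 dual UMIs. The highest called genes were Pola1, a DNA polymerase subunit (1.28), Ciao3 (1.19), Ppan (1.13), Faap100 (1.12), Pdcd11 (1.09) and Xpot (1.09). The lowest were Chil3 (1 and 291 UMIs), F10 (2 and 184), Cxcl13 (0 and 211), Adamts1 (0 and 184), Sirpb1c (2 and 112) and Slpi (7 and 340). Chil3 and Sirpb1c are known from myeloid cells, and the macrophage list summed to 5022 CPM in dual and 5677 in single barcodes, with no marker at 0. The dendritic cell list summed to 954 CPM in dual and 573 in single barcodes, with 6 of 7 tested markers above 0, a median of 0.50 and none called. With at most 1 UMI of the macrophage list 49 genes were higher and 124 lower, of which 22 were among the 199 calls with all barcodes. With that limit on macrophage UMIs Cxcl13 was at 2.09 and Slpi at 0.61, and the part of the macrophage and dendritic lists in the other calls was not tested.

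In the CD4 class at day 19, 43 of 7849 genes (0.548%) were higher in dual barcodes and 95 (1.21%) lower, 1.76% in all. With only barcodes of at most 1 macrophage-list UMI, 14 were higher and 65 lower, of which 4 were among these. Havcr2 was at 77.1, 96.9, 64.3 and 98.5 CPM in dual and 62.2, 63.7, 49.9 and 41.4 in single sets (0.67, interval 0.38 to 0.96), with each dual set above every single set. Prf1 was at 4.3, 43.1, 78.0 and 17.9 in dual and 1.9, 5.9, 7.7 and 17.4 in single sets (2.07), and 2 dual barcodes held a share of at least 0.5 of its 52 dual UMIs. Epcam was at 1.76, H2-DMb2, a chaperone of peptide loading on MHC class II, at 1.05, Abca7 at 0.85 and Plbd1 at 0.79. Cd209a, a dendritic cell lectin, held 0 dual and 303 single UMIs, and Il2, the T cell growth factor, 3 and 204 in 3 and 51 barcodes. Serpinb1a held 0 and 107 UMIs, Hist2h2bb 5 and 125, Mpp7 6 and 116, and Atp8b2 6 and 104. The macrophage list was at a median of 39 UMIs in dual and 3 in single barcodes and at 9635 and 8406 CPM, with 72.6% and 54.9% of barcodes at 2 UMIs or more and no marker at 0. Mpp7 was at 0.56 among barcodes with at most 1 such UMI, and the list's part in the other calls was not tested.

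Foxp3, the transcription factor of regulatory T cells, was seen in a larger share of dual than of single CD4 barcodes, less so once depth was matched. CD4 barcodes with a Foxp3 UMI were dual in 14.6% of 295 at day 13 (interval 10.8 to 19.1) against 10.2% of the 1219 without (interval 8.53 to 12.01). At day 19 these shares were 18.1% of 271 (interval 13.7 to 23.2) against 10.5% of 645 (interval 8.28 to 13.2). The intervals overlapped at day 13 and not at day 19, but they count barcodes of 1 clonotype, which share their chains, as separate draws. A share with each clonotype counted once was not made, and the difference was not tested. A Foxp3 UMI was seen in 25.7% of dual (interval 19.3 to 33.1) and 18.7% of single CD4 barcodes (16.7 to 20.9) at day 13 and in 41.9% (32.8 to 51.4) and 27.8% (24.7 to 31.0) at day 19. When each barcode was thinned to 3000 gene UMIs the shares were 18.6% of 156 dual (interval 12.8 to 25.6) and 15.2% of 1144 single barcodes at day 13, and 23.3% of 116 (interval 15.9 to 32.0) and 20.8% of 758 at day 19. Thinning left out 11 dual and 203 single barcodes at day 13, and 1 and 41 at day 19. The thinned intervals overlapped on both days. In CD8 barcodes, which should lack the gene, thinned shares were 1.06% and 1.05% at day 13 and 0.915% and 1.52% at day 19. Of 8 regulatory genes 1, Ikzf4 at 0.83, was higher in day 13 CD4 and none in day 19 CD4, with medians of 0.30 and 0.22, beside 0.955% and 0.548% of all tested genes. In CD8 barcodes 1 of 7 tested was lower on each day, beside 1.96% and 2.73% of all tested genes, at day 19 Foxp3 itself, with 15 dual and 128 single UMIs (-1.34, and -0.98 without the largest dual clonotype).

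Antibody tags for surface receptor showed no doubling. The CD3 tag had medians of 39 UMIs in dual and 37 in single CD8 barcodes at day 13 and 21 and 19 at day 19. In CD4 barcodes it was at 38 and 39 at day 13 and 21 and 21 at day 19. The TCR beta tag was at 7 and 7 UMIs in day 13 CD8, 8 and 8 in day 13 CD4, and 4 in dual and single barcodes of both classes at day 19. The tag for the V alpha 2 family, which TRAV14 encodes, had medians of 80.5 UMIs in single barcodes with TRAV14 and 74 in those without at day 13, and 43 and 38 at day 19, so most of its signal was present without the chain. Dual barcodes with TRAV14 in either chain were at 79.5 and 45 UMIs. The CD8a tag was at 9 UMIs in dual CD8 and 9 in dual CD4 barcodes at day 13, and at 6 and 4 at day 19. The CD4 tag was at 3 and 5 UMIs in the same order at day 13, and at 2 and 3 at day 19. These tags separated the classes by few UMIs and bear weakly on surface levels.

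The remaining gene lists held few calls. Of 13 coreceptor and proximal signalling genes tested in CD8 and 12 in CD4 none was called on either day, with medians between -0.09 and 0.05. Over all tested genes 2.38% and 3.71% were called in CD8 of days 13 and 19, and 2.57% and 1.76% in CD4. No call among 12 or 13 genes is near those shares. Of the innate-like list Fcer1g, a signalling adaptor of NK cells, was at -0.72 in day 13 CD8 and 0.65 in day 19 CD8, and Ly6c2 was lower at -0.85 in day 13 CD4 and -0.78 in day 19 CD8. Among dendritic cell markers Flt3 was lower at -1.17 in day 13 CD8 and Itgax at -0.70 in day 19 CD8. Of the gamma-delta receptor genes Tcrg-C4 was lower at -1.08 in day 19 CD8, and of the cell cycle list Ccnb2 was higher there at 0.63. With each clonotype weighted equally, Fcer1g was at -0.47 and 0.10 on the 2 days, Itgax at 0.09 and Ly6c2 of day 19 at -0.09, none of them called, and with at most 1 macrophage-list UMI Fcer1g of day 13 was at 0.07. Without the largest dual clonotype of day 19, none of the day 19 CD8 calls of these 4 lists passed: Fcer1g, Ly6c2, Itgax, Tcrg-C4 and Ccnb2. In day 13 CD4, Id3 was lower at -0.60 (0.34 with at most 1 macrophage-list UMI) and Gzma at -1.65, and in day 19 CD4 Bach2 was lower at -1.08. No B cell marker was called, 1 gene of the rearrangement list was tested and not called, and no red cell marker was tested.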

How the data were processed

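Gene and tag values are raw UMI counts per barcode, deposited by the authors as unfiltered matrices that Cell Ranger wrote, per the file headers; contig UMIs are counts from the deposited contig tables. The submitters' processing notes name Cell Ranger 4.0.0, STAR 2.7.5c, bcl2fastq 2.20, Seurat, R 4.1.2 and mm10. Whether a contig set is one of the pooled replicates is not stated in the sources used here. Counts were summed over barcodes with Python 3.11.15, pandas 2.3.3, numpy 2.4.6 and scipy 1.17.1, divided by total gene UMIs and compared as ratios with exact Poisson intervals; shares have exact binomial (Clopper-Pearson) intervals at 95%. A sum of 0 was set to 3 UMIs over the group, giving a bound, and no ratio was taken with both sums at 3 or less. Each day is 1 sample, so no test across samples was made. The calls were tested on simulated data. Alternatives changed the depth, UMI and coreceptor minimums, the scaling, the weight of clonotypes, macrophage UMIs and tag purity, and left out each set. Doublets were not removed by a caller; mixed-droplet values stand beside the shares. Named genes are TCR and CD3 genes, a fixed list of T cell genes, and the 6 highest and 6 lowest called genes of each comparison, leaving out receptor and immunoglobulin segments, ribosomal, mitochondrial, sex-linked and unnamed genes; other genes named belong to the 14 gene lists. Some genes that this rule names are not reported here. The members and lists were chosen with earlier results of these data known. Of the V and J segments used, all 90 and 43 were in the RefSeq table of GRCm38.p6.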

Additional observations from a re-analysis of the deposited data

Results flagged for a closer look

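With 4 sets a group, chance marks about 1 group in 20 as having a set far from the others. In the day 19 CD4 class the dual share of set 1 was 24.6%, 15 of 61 barcodes, apart from 11.3%, 12% and 13.4%. In the same set the log2 ratio of Cd3g, a chain of the CD3 complex, was -0.73, below the other sets. The mean TRAJ number of dual minus single chains was -5.09 in day 19 set 3, apart from the other sets.

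Genes whose dual to single log2 ratio had one sign in all sets of day 13 and the other in all sets of day 19 are given next, day 13 first. The difference between days was not tested, and each day is 1 capture. In CD8 barcodes Cd69 was at 0.18 and -0.52, Dusp14 at -1.03 and 1.33, and Tmem201 at 1.00 and -0.53. Gzmc was at -2.56 and 1.78, and Gzmf at -6.38 and 1.99. Without the largest dual clonotype of day 19 these were at 1.34 and 1.19 and did not go the same way in every set of that day. The inhibitory receptors Havcr2, Lag3 and Pdcd1 were at -1.03 and 0.76, -0.25 and 0.71, and -0.47 and 0.63. Without the largest dual clonotype of day 19 these 3 were at 0.32, 0.22 and 0.07, each higher in 3 of 4 sets, and Cd69 was at -0.18, lower in 3 of 4 sets. In CD4 barcodes Abca7 was at -0.55 and 0.85, Plbd1 at -0.44 and 0.79, and Sirpb1c at -3.13 and 0.48.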

How the results depend on the processing

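Of the recomputed summary values 169 stayed within the limit of their kind and 53 did not. For dual shares and pair recurrence the limit was the exact binomial interval of the main value. It was the standard deviation over sets for UMI ratios and V and J positions, and 1.5 times for gene counts. With at least 5000 gene UMIs the dual share was 13.9% in day 13 CD4, 20.9% in day 19 CD8 and 15.1% in day 19 CD4, and the day 19 TRA sum ratio 2.08. With at most 1 macrophage-list UMI the day 19 CD4 share was 8.16%. The day 19 CD8 share was 12.5% with each clonotype once, 12.2% without the largest dual clonotype, and 14.03% to 21.1% leaving out each set, lowest without set 2. Without that clonotype the TRA sum ratio was 2.15 and the pair recurred in 88.0%, or in 86.9% to 94.7% leaving out each set. In clonotypes of at least 4 members it recurred in 96.1% at day 13 and 99.1% at day 19. With every barcode counted the mean TRAJ difference of day 13 was 0.69, and the day 19 J and V correlations 0.16 and -0.059. Genes higher in day 13 CD8 numbered 25 with at least 200 UMIs, 70 with no minimum, 80 weighted, 87 in clonotypes of 1 member and 61 to 87 leaving out each set, and 84 were lower with at most 1 macrophage-list UMI. In day 13 CD4, in the same order of minimums, 33 and 120 were higher, 49 with at most 1 macrophage-list UMI and 79 to 149 leaving out each set, while 77 were lower with at least 200 UMIs and 146 to 199 leaving out each set. In day 19 CD8, 53 were higher weighted, 51 with at most 1 macrophage-list UMI, 38 without the largest dual clonotype, 46 in clonotypes of 1 member and 66 to 179 leaving out each set, and 98, 116, 115, 130 and 166 to 434 were lower, or 373 with no minimum. In day 19 CD4, 21 and 79 were higher with the 2 minimums, 14 with at most 1 macrophage-list UMI, 72 in clonotypes of 1 member and 63 to 79 leaving out each set, while 58 were lower with at least 200 UMIs and 122 to 174 leaving out each set. The share of called genes that were higher in day 13 CD4 was 37.2%, and 21.9% with median-of-ratios scaling. With at most 1 macrophage-list UMI the log2 ratios of Clec4e (2.39) and Kdr (0.000804977) in day 13 CD8, Cxcl13 (2.09) and Slpi (0.61) in day 13 CD4, Enpp2 (0.18) in day 19 CD8 and Mpp7 (0.56) in day 19 CD4 changed sign, as did Sct in day 19 CD8 (1.46) among clonotypes of 1 member. The causes were not tested. Settings on the largest clonotype and on clonotypes of 1 member were chosen after seeing the data. No paired test was made, since no result comes from a test; dual and single barcodes were compared within each set. Depth limits low genes: a called gene may rest on few barcodes.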
